A study of Mus musculus with 18 samples.

Results

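Btbd11, Mboat1 and Slc6a15 are 3 autosomal genes of the mouse, of 55401 genes counted by mRNA-seq, and they were chosen because their counts were at 0 in the WT libraries and not in the XPO4 KO libraries. The counts that chose them are therefore given below as a description, with no test. Their neighbours within 500 kb, the circRNAs made from them and the other genes of their pathways were not part of the choice. The cells were NIH/3T3, a mouse embryonic fibroblast line, either wild type (WT) or knocked out for XPO4 (KO), a nuclear transport receptor that the study examined for the export of circRNAs. The KO came from CRISPR/Cas9 editing and is a single line, so that genotype and the history of that line cannot be told apart. There were 3 mRNA-seq libraries of each genotype and 12 circRNA-seq libraries, 2 each of whole cells, cytoplasm and nuclei from both genotypes, made after RNase R had digested linear RNA. Nothing says that libraries of a group came from separate cultures, so p-values measure the spread between these libraries, which may be technical.

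Btbd11 encodes a protein with a BTB domain and ankyrin repeats, known as a postsynaptic protein of inhibitory interneurons. BTB proteins often serve as adaptors of cullin 3 ubiquitin ligases. Mboat1 encodes a membrane-bound O-acyltransferase that puts a fatty acid back onto lysophosphatidylethanolamine and lysophosphatidylserine, the closing step of the cycle in which phospholipases A first remove it. Slc6a15 encodes a sodium-dependent carrier of neutral amino acids, with a preference for leucine, isoleucine, valine and proline, and is best known from neurons.

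The mRNA-seq libraries held between 16974062 and 22057323 read pairs assigned to genes. Of 14688 genes that passed edgeR's filter on low counts, 7151 (48.7%) had an adjusted p under 0.05 between the genotypes, 25.1% of those tested being higher and 23.6% lower in KO, with a median log2 fold change of -0.003. The targeted gene was counted with 657, 614 and 685 read pairs in WT and 712, 504 and 687 in KO. Its level of 31.8 ± 1.05 counts per 1000000 counts in genes (CPM) in WT and 36.2 ± 6.99 in KO (SD, n = 3) differed by a log2 fold change of 0.18 (SE 0.11, edgeR adjusted p = 0.193), so the count of Xpo4 does not tell the genotypes apart. Without KO replicate 2 the same gene was higher in KO, by 0.34 (adjusted p = 0.000252). A heading inside each of the 6 mRNA-seq files names a library of the opposite genotype from the sample title. Titles were followed throughout, and every mRNA-seq direction given here turns round if the headings are right. The circRNA-seq directions rest on other libraries. Fibroblast markers were abundant in every library, at a summed 24378 to 25966 CPM in WT and 21684 to 24432 in KO, with 6 of 13 higher, 6 lower and 1 not called.

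Btbd11 (ENSMUSG00000020042.15) lies on the plus strand of chromosome 10 at chr10:85386814-85660292 (mm10). No read pair was counted in any of the 3 WT libraries, against 182, 145 and 207 in KO. The KO level was 10.2 ± 2.05 CPM (SD, n = 3), with 10.2, 8.09 and 12.2 CPM in the single libraries. All 3 KO libraries thus stood clear of all 3 WT libraries. Set against a floor of 3 counts over the WT group, which is 0.0488 CPM, the pooled KO level was at least 208-fold higher.

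Mboat1 (ENSMUSG00000038732.15) lies on the plus strand at chr13:30136489-30246717. It too had 0 read pairs in each WT library, while KO had 110, 98 and 70. These corresponded to 6.17, 5.47 and 4.12 CPM, with a mean of 5.25 ± 1.04 (SD, n = 3), at least 108-fold above the floor of the WT group. The KO libraries did not overlap with WT, and the highest and lowest of them differed more for Mboat1 and Btbd11 than for Slc6a15.

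Slc6a15 (ENSMUSG00000019894.14) lies on the plus strand at chr10:103367783-103419377, on the same chromosome as Btbd11. Its counts were 0 in each WT library and 95, 96 and 82 in KO. At 5.33, 5.36 and 4.83 CPM, the KO libraries had a mean of 5.17 ± 0.296 (SD, n = 3), at least 106-fold above the same floor. The coefficient of variation over the KO libraries was 5.73% for Slc6a15, 20.2% for Btbd11 and 19.8% for Mboat1.

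**Figure D1:**
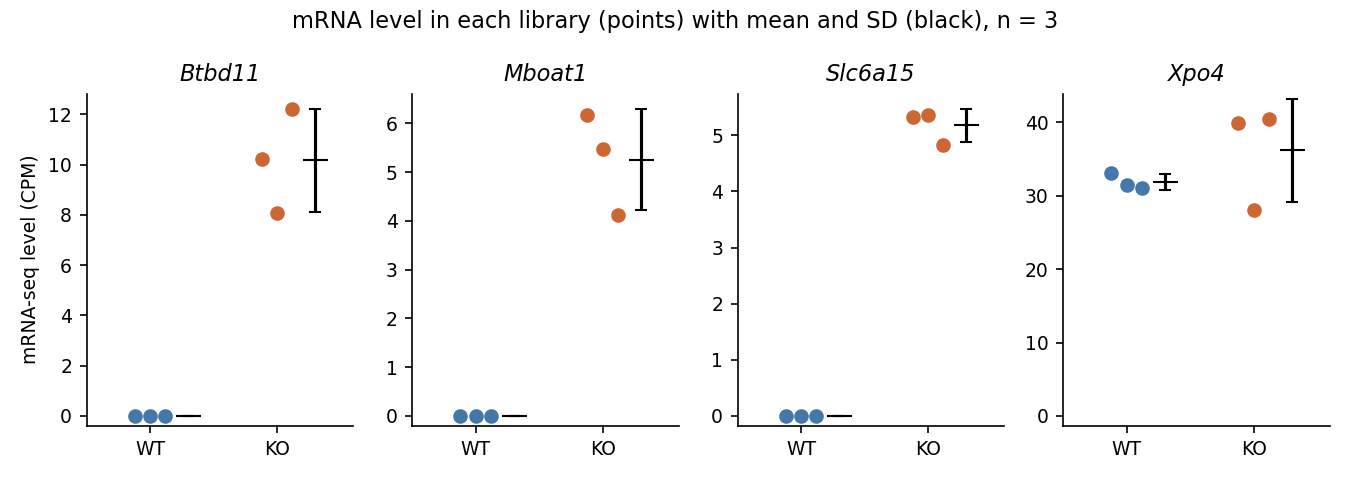
mRNA level in CPM (vertical axis, from 0, a scale of its own in each panel) of Btbd11, Mboat1, Slc6a15 and the targeted gene Xpo4 in each WT and KO mRNA-seq library, with the mean and SD in black (n = 3). The 3 chosen genes are at 0 in every WT library and between 4.12 and 12.2 CPM in KO, while the Xpo4 points of both genotypes overlap.

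To compare the genes with each other, counts were divided by exon length (CPM per kilobase of exon, FPKM). In KO, Mboat1 had the highest level, 1.44 ± 0.284 FPKM (SD, n = 3), with libraries at 1.69, 1.49 and 1.13. Btbd11 followed with 1.01 ± 0.205 FPKM and Slc6a15 with 0.667 ± 0.0382 FPKM. The ranges of Mboat1 and Btbd11 overlapped, whereas the 3 libraries of Slc6a15 lay below those of both other genes. All 3 levels were low for these cells, since they exceeded the KO FPKM of 24.0% of the genes tested for Mboat1, 19.4% for Btbd11 and 14.5% for Slc6a15. In bulk RNA, a few cells with much of a transcript and many cells with little of it cannot be told apart.

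Genes with such a pattern were few. At most 3 counts in every library of one genotype and at least 50 in every library of the other were found for 16 genes on in KO, the 3 genes included, and for 5 genes off in KO. Among the 16, 11 were at 0 in all WT libraries. The Y chromosome held 4 of them, Ddx3y with 594, 506 and 511 counts in KO, Eif2s3y with 325, 324 and 282, Kdm5d with 154, 136 and 147, and Uty with 135, 100 and 119, each at 0 in all WT libraries. Ppargc1a, a coactivator of mitochondrial biogenesis, had 283, 277 and 357 counts in KO and 0 in WT, and Pappa2, a protease of insulin-like growth factor binding proteins, had 263, 228 and 304 in KO and 0, 1 and 0 in WT. The 5 genes with the opposite pattern were Saa3, Serpina3i, Lcn2, Steap4 and Plekha6, of which Saa3, an acute phase protein, had 1363, 1221 and 1538 counts in WT and 0, 1 and 3 in KO. What the Y-linked genes have to do with the 3 autosomal ones was not tested.

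**Figure D2:**
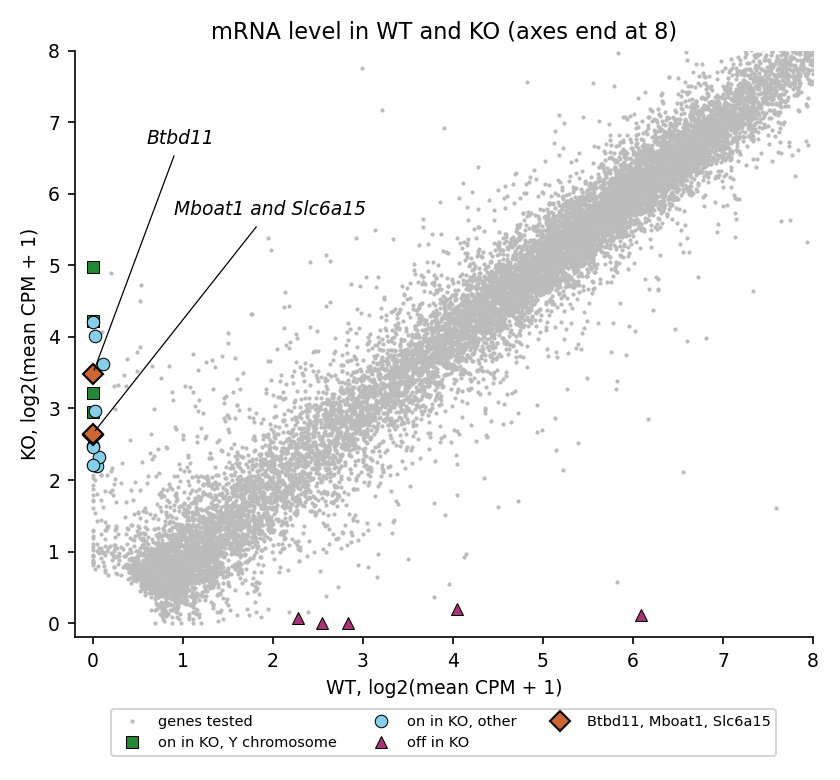
Mean mRNA level in KO (vertical axis) against WT (horizontal axis), both as log2(mean CPM + 1) up to 8, for the genes tested. Orange diamonds mark Btbd11, Mboat1 and Slc6a15, green squares the 4 Y-linked genes and blue circles the other genes that were on in KO, all near 0 in WT, and purple triangles the 5 genes that were off in KO.

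The genes whose levels were most like each of the 3 were ranked by Euclidean distance in log2(CPM + 1) over the 6 mRNA-seq libraries. For Mboat1 the nearest of the genes that passed the filter on low counts was Slc6a15, at a distance of 0.260, and the reverse held as well. Both were followed by 1500011B03Rik (0.337 from Mboat1 and 0.292 from Slc6a15) and by Gprasp2, a sorting protein for G protein-coupled receptors (0.389 and 0.293). Uty came next for both, at 0.694 and 0.635, and the list closed with Akr1c18, a steroid dehydrogenase, for Mboat1 (0.794) and Rab6b, a small GTPase of the Golgi, for Slc6a15 (0.683). Btbd11 had a higher level and other neighbours in this ranking. They were the histone demethylase gene Kdm5d (0.506), the thyroid hormone deiodinase gene Dio2 (0.520), the cadherin gene Cdh26 (0.728), Gm21680 (0.737) and Dkk2, a secreted modulator of Wnt signalling (0.742). Gm21680 belongs to a family of near-identical copies on chromosome 5, so its count is uncertain. Dio2 had 3, 3 and 5 counts in WT and 150, 141 and 180 in KO, so that it was low in WT but not at 0. These distances describe the 6 libraries, and the contrast that orders them is the one the 3 genes were chosen on.

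Around Btbd11, most of the expressed genes were also higher in KO. Of 37 annotated neighbours within 500 kb, 13 passed the filter on low counts, which asks for about 10 counts in 3 libraries, and 10 of these were higher, 0 lower and 3 not called. Bpifc, Fhl4 and A230060F14Rik passed it through the KO libraries alone, so that a much lower level in KO could not have been seen for them. Of the 10 neighbours that reached the filter's level in both genotypes, 8 were higher and 2 not called, with a median log2 fold change of 0.46. Of all genes tested, 25.1% were higher in KO, and 26.3% of those that reached the level in both genotypes. On chromosome 10 as a whole, 455 of 689 genes tested (66.0%) were higher and 57 (8.27%) lower, with a median of 0.45, and of those reaching the level in both genotypes 70.0% were higher, beside 80% near Btbd11, a difference that was not tested. Fbxo7, the substrate adaptor of an SCF ubiquitin ligase, had 365, 357 and 412 counts in WT and 953, 1061 and 847 in KO, a log2 fold change of 1.55 (SE 0.080, adjusted p = 4.5e-09). Its libraries did not overlap between the genotypes. The same was true of Bpifc, which encodes a lipid-binding fold protein, with 8, 5 and 8 counts in WT and 66, 40 and 34 in KO (log2 fold change 2.93, SE 0.371), given as a description since the filter fixed its direction.

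Smaller changes surrounded them. Syn3, a synapsin gene, rose by 1.10 (SE 0.293) and Tmem263 by 1.02 (SE 0.063) on the log2 scale. Rtcb, the tRNA-splicing ligase, rose by 0.58 (SE 0.056), Ric8b, a chaperone of G protein alpha subunits, by 0.54 (SE 0.081), and the circadian repressor Cry1 by 0.38 (SE 0.083). The zinc finger gene Prdm4 had a log2 fold change of 0.35 (SE 0.076) and Pwp1, a ribosome biogenesis factor, one of 0.23 (SE 0.065), which was lost without WT replicate 2 (0.20, adjusted p = 0.0554). Fhl4, a LIM-domain gene with 11, 3 and 7 counts in WT and 17, 15 and 14 in KO, which passed the filter through KO alone, was called at 1.33 (SE 0.440), and this call was lost without any one of KO replicate 1, WT replicate 2 and WT replicate 3 and with DESeq2. Not called were Mterf2 (0.13), the antisense gene A230060F14Rik (0.26) and the pseudogene Gm8394 (-0.33). A230060F14Rik overlaps the start of Fbxo7, and within that overlap counts made without strand cannot tell them apart. Gm8394 was the tested gene nearest to Btbd11, at a distance of -72.4 kb. Gm8394 passed the threshold as lower in KO without KO replicate 1 (-0.55, adjusted p = 0.0102) and without the filter on low counts. The other neighbours were low or silent, with 18 at 0 in all 6 libraries and 6 with too few counts to test.

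Slc6a15 lies in a region with few expressed genes. Of 13 annotated neighbours, 7 were at 0 in all 6 libraries, among them the homeobox gene Alx1 and Lrriq1 before it, 4 were too low to test, and 2 passed the filter. Both of these lie downstream of Slc6a15 on its strand, and both passed the filter through the KO libraries alone. They had to differ in that direction to be tested, so their values are given as a description with no test. The lincRNA gene Gm47223, 88.0 kb away, had 11, 6 and 8 counts in WT and 214, 242 and 219 in KO (log2 fold change 4.95, SE 0.208). The pseudogene Gm47220, 148 kb away, had 1, 2 and 1 counts in WT and 38, 72 and 58 in KO (log2 fold change 5.48, SE 0.482). Every KO library exceeded every WT library in both. Unlike Slc6a15, neither was at 0 in all WT libraries. On the same side, Gm47221 had 1, 0 and 1 counts in WT and 3, 7 and 5 in KO. Gm47222 had 0, 1 and 0 against 5, 5 and 8, and Gm26923 had 1, 1 and 0 against 15, 3 and 15. These 3 genes were too low for the filter. All 3 had more counts in KO than in WT in sum. Gm47221 overlaps Gm47223 on the same strand, and Gm47220 and Gm47222 lie within the span of Gm47221. Reads may have been shared between these genes, so they may not be separate observations.

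Around Mboat1, no tested gene was called higher in KO. Of 15 annotated neighbours, 4 passed the filter, and of these 2 were lower and 2 not called. E2f3, a cell cycle transcription factor gene at a distance of -150 kb, had 821, 898 and 968 counts in WT and 654, 540 and 652 in KO, a log2 fold change of -0.32 (SE 0.086, adjusted p = 0.00739). Dusp22, which encodes a phosphatase, had 426, 410 and 524 counts in WT and 272, 278 and 319 in KO (-0.42, SE 0.099, adjusted p = 0.00337). Cdkal1, a tRNA-modifying enzyme gene, and Uqcrfs1, which encodes the Rieske protein of respiratory complex III, had log2 fold changes of -0.10 and 0.08 and were not called. Agtr1a, an angiotensin receptor gene and the nearest protein-coding gene downstream, was at 0 in all 6 libraries, as were 9 of the 15 in all, including Gm23206 and Gm11366 inside Mboat1 itself. On chromosome 13, 130 of 563 genes tested (23.1%) were higher in KO and 101 (17.9%) lower, and the median was 0.01. Over all genes tested 25.1% were higher and 23.6% lower. With 4 neighbours tested, a difference from these shares was not tested. Of all 65 neighbours of the 3 genes, 19 were tested and 14 reached the filter's level in both genotypes. Of these 14, 8 were higher, 2 lower and 4 not called, that is 71.4% called beside 49.7% of all genes reaching that level. The share called was 78.3% on chromosome 10, which holds 10 of the 14, and 41.1% on chromosome 13. A difference from the shares of these chromosomes was not tested.

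**Figure D3:**
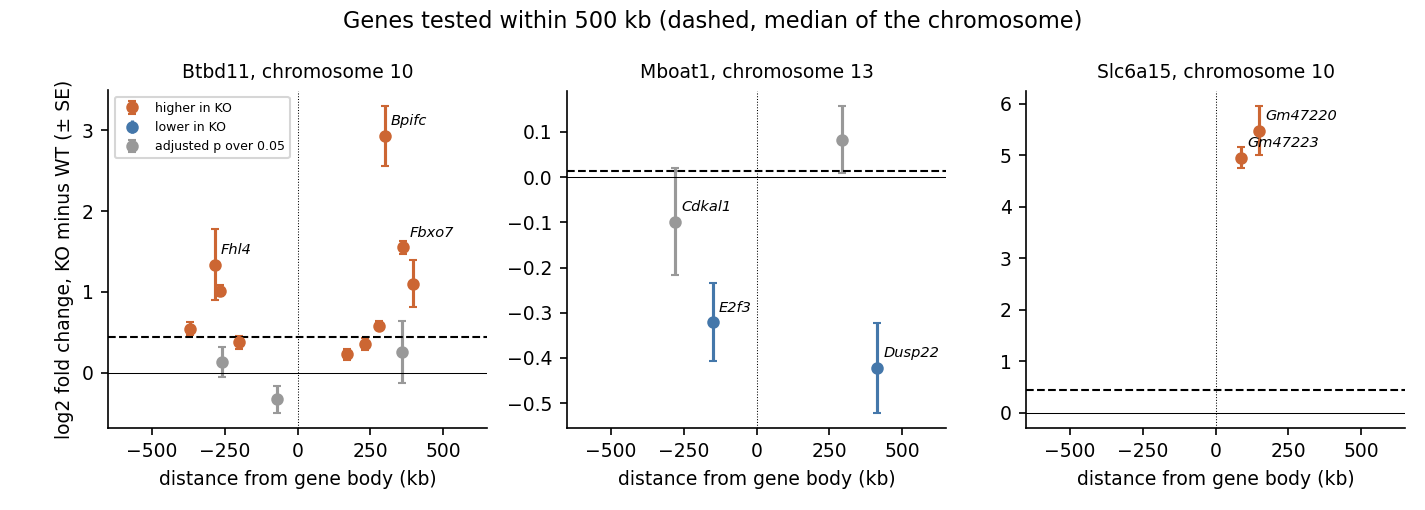
Log2 fold change, KO minus WT (vertical axis, ± SE, 3 libraries of each genotype), of the neighbours tested against their distance in kb from the gene body (horizontal axis, left is towards lower coordinates), with a dashed line at the median of the chromosome. Most neighbours of Btbd11 lie near or above that line at 0.45, both tested neighbours of Slc6a15, which passed the filter through KO alone, lie above it at 4.95 and 5.48, and E2f3 and Dusp22 beside Mboat1 lie below 0. Orange and blue mark genes called higher and lower, grey those not called.

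The sequence before the start of Mboat1 is shown because it differs in base composition from most promoters. In RefSeq's promoter table for GRCm38.p6, with 32851 entries, Mboat1 and Btbd11 had entries, the latter with 2 start sites. In the 250 bases before its start, Mboat1 had 73.2% G and C, more than 94.3% of all promoters, and 23 CG dinucleotides, more than 86.7% of them. The median promoter had 52.4% and 6 CG. The first start of Btbd11 had 55.6% and 10 CG, and the second, within the gene, 52% and 3 CG. The letters GGGCGG (GC box) were found on either strand in the window of Mboat1 and in the first one of Btbd11, and in 32.7% of all promoters. CCAAT was found in all 3 windows and in 33.9% of all promoters. TATAAA, in 12.4% of all promoters, was in none of the 3. These are matches of letters, which do not show that a factor binds. The stretch below, chr13:30136240-30136450 on the plus strand (GRCm38), ends shortly before the annotated start of Mboat1, holds 19 CG, and has the GC box in capitals.
Mboat1 upstream: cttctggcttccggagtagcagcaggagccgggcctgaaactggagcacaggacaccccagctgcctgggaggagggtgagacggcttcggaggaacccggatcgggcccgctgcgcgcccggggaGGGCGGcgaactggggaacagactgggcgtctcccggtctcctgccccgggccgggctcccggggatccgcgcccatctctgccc

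CircRNAs, which arise when the end of an exon is spliced back to the start of the same or an earlier exon, were read from separate libraries. Of 16164 circRNAs listed, 2 lay inside Mboat1, and none inside Btbd11 or Slc6a15 in any of the 12 libraries. Taken as a count of 0, this allows up to 36.6 to 59.6 junction reads per 1000000 (RPM) in the whole-cell and cytoplasmic libraries. In the nuclear ones, which were much smaller, it allows 684 to 1370. Both Mboat1 circRNAs start at exon 2. One joins it to exon 4 (chr13:30194536-30202420, 320 nt of exon) and the other to exon 3 (chr13:30194536-30195787, 224 nt). Every end lies on an annotated exon edge, with AG before exon 2 and GT after the last exon. The junctions are shown because their reads define the circRNAs, with 50 bases of coding exon on each side, and capitals mark the start of exon 2 after the end of the last exon.
Exons 2 to 4: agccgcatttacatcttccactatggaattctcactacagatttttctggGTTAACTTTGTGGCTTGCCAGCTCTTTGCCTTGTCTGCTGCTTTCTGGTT
Exons 2 to 3: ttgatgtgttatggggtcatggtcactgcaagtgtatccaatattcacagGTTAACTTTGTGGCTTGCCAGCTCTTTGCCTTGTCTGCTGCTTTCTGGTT

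The circRNA of exons 2 to 4 was present in WT whole cells, where the mRNA-seq libraries had no read pair of Mboat1. WT whole-cell libraries gave 5 and 5 junction reads, or 86.5 and 90.7 RPM, with a mean of 88.6 ± 2.97 (SD, n = 2). KO gave 9 and 12 junction reads, or 155 and 238 RPM, with a mean of 197 ± 59.1 (SD, n = 2). The genotypes did not overlap and their ratio was 2.22, but with 2 libraries against 2 an exact two-sided permutation test cannot go below p = 0.333, the value obtained. In the cytoplasm neither WT library listed it, which is taken here as 0 reads. KO had 6 and 8 reads, that is 119 and 126 RPM (mean 122 ± 5.52, SD, n = 2). Set against 3 reads over the WT group, KO was then at least 6.54-fold higher (exact permutation p = 0.333). The filters behind the lists are not given, so an unlisted circRNA may still have had reads. A low level of this circRNA in WT cytoplasm could therefore have gone unseen. The nuclear libraries did not list it. They listed the shorter circRNA instead, at 1370 and 380 RPM in WT, from 3 reads and 1 read, and at 802 and 684 RPM in KO, from 3 reads each. The nuclear means of 875 ± 701 in WT and 743 ± 82.8 in KO differed by less than the spread within WT (exact permutation p = 1). The nuclear libraries held 2189 to 4383 junction reads in all, against 50341 to 81941 in the others, so their RPM values rest on single reads.

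**Figure D4:**
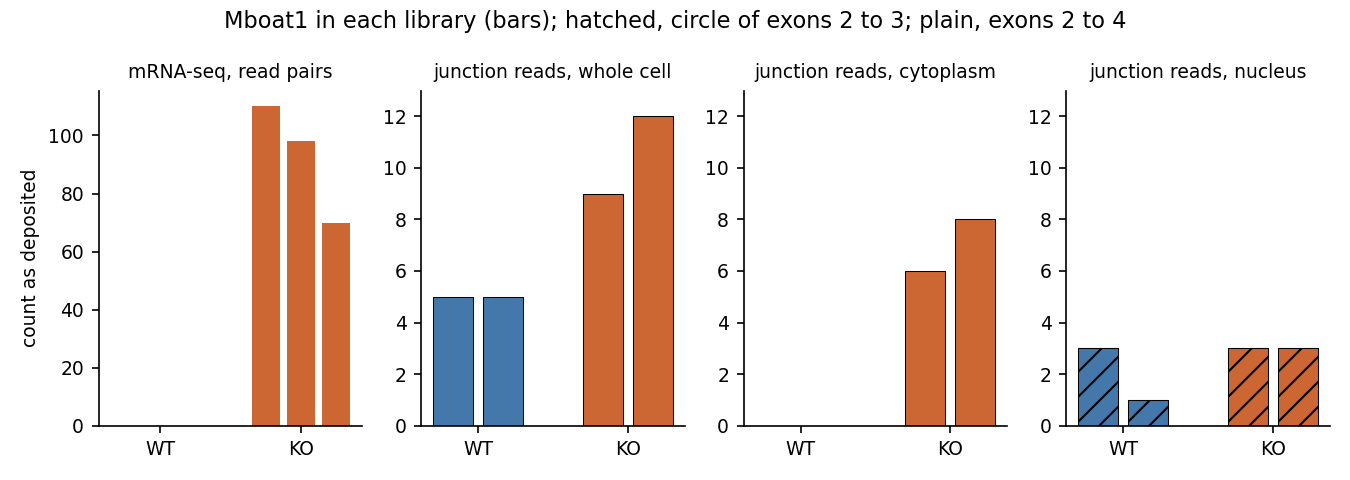
Counts as deposited (vertical axes, from 0) of Mboat1 in each library, read pairs in mRNA-seq on the left and junction reads in the whole-cell, cytoplasmic and nuclear circRNA-seq libraries, WT in blue and KO in orange. WT has no bar in mRNA-seq and in the cytoplasm, but 5 and 5 junction reads in whole cells and 3 and 1 in the nucleus, and hatched bars mark the circRNA of exons 2 to 3.

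Few host genes had circRNA reads in WT whole cells without any mRNA count. Of 3837 genes with a circRNA whose ends are exon edges of that gene alone, 14 (0.365%) were at 0 in all WT mRNA-seq libraries, Mboat1 among them. In KO the same was true of 1 of 3828. By WT whole-cell junction reads, Mboat1 with 10 was the third of the 14, after Uty with 22 and Ppargc1a with 11. The median over all hosts was 14 reads, and 34.1% of them had fewer than Mboat1. Of the 16 genes on in KO, 4 had circRNAs, namely Mboat1 (14 junction reads over the WT and 41 over the KO libraries), Uty (22 and 43), Sobp (4 and 19) and Ppargc1a (11 and 12), and all 4 had reads in WT circRNA-seq libraries. None of the 5 genes off in KO had any. The Y-linked gene Uty thus had junction reads in libraries titled WT while its mRNA-seq counts in WT were 0, so the circRNA-seq and mRNA-seq libraries of the same title differ in this respect. Whether they came from the same cells was not tested.

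Of the other lysophospholipid and glycerolipid acyltransferases listed with Mboat1, 15 reached the filter's level in both genotypes. Of these, 7 were higher, 3 lower and 5 not called, with a median log2 fold change of 0.10. Of all genes reaching that level, 49.7% were called, 26.3% higher and 23.4% lower. The 17 tested beside Mboat1 had 8 higher, 3 lower and 6 not called, with Gpat3 counted as higher though its direction was fixed by the filter. Over all genes tested the median was -0.003, and 48.7% were called, 25.1% higher and 23.6% lower, the shares against which this count and those of the lists that follow are to be read. Gpat3, an acyltransferase of the first step of glycerolipid synthesis, had 14, 19 and 9 counts in WT and 20, 50 and 34 in KO (1.51, SE 0.401), and passed the filter through KO alone. Lpcat2, which acylates lysophosphatidylcholine, had 65, 75 and 85 in WT and 188, 186 and 151 in KO (1.44, SE 0.145), and Agpat3, which acylates lysophosphatidic acid, rose from 714, 653 and 808 to 1584, 1745 and 1533 (1.38, SE 0.066). Agpat2, of the same function, had 152, 108 and 148 counts in WT and 45, 58 and 38 in KO (-1.31, SE 0.194). Lpcat3 was lower by a log2 fold change of -0.27. Mboat2, the closest relative of Mboat1, had 1 count in 1 KO library and 0 elsewhere, and Mboat7, which acylates lysophosphatidylinositol, was expressed at 9.48 ± 0.136 FPKM in WT and 10.1 ± 0.672 in KO (SD, n = 3) and was not called (0.09, adjusted p = 0.231). Among 14 phospholipases A and lysophospholipases, which make or remove the substrates, 3 were higher, 3 lower and 8 not called, near the 48.7% called over all genes. Pla2g4a, the cytosolic phospholipase A that releases arachidonic acid, had a log2 fold change of 0.48, and Pla2g16 one of -1.12. Of 5 other MBOAT enzymes tested, 2 were lower (all genes, 23.6%) and 3 not called, the former being the sterol acyltransferases Soat1 (-0.37) and Soat2 (-1.14).

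Most genes of the SLC6 family had few or no counts. Of 20 SLC6 genes, 6 were at 0 in all libraries, and beside Slc6a15 4 passed the filter. Slc6a6, the taurine transporter, was higher with a log2 fold change of 0.40 and had the second highest level of the family in WT, 48.8 ± 0.943 FPKM, against 64.4 ± 7.08 in KO (SD, n = 3). Slc6a4, the serotonin transporter, was lower at -1.24, with 36, 22 and 22 counts in WT and 11, 11 and 7 in KO, and passed the filter through WT alone. The creatine transporter Slc6a8 and the glycine transporter Slc6a9 were not called. Among 16 genes tested from a list of other neutral amino acid carriers, 1 was higher, 7 lower and 8 not called, with a median of -0.16. The list, and the 7 lower, include Slc7a11, which exchanges cystine for glutamate and is not a carrier of neutral amino acids alone. The share called was close to the 48.7% of all genes, of which 25.1% were higher and 23.6% lower, and the split by direction was not tested. Slc7a5, the light chain of the main leucine exchanger, had 2505, 2585 and 2929 counts in WT and 1319, 1365 and 1335 in KO (-0.78, SE 0.056, adjusted p = 1.3e-07). Slc43a2, a facilitator of leucine and other large neutral amino acids, had a log2 fold change of -1.49, Slc7a11, the cystine-glutamate exchanger, -1.45, Slc16a10, a carrier of aromatic amino acids, -0.60, the glutamine carrier Slc1a5 -0.46, Slc1a4 -0.30 and Slc38a2 -0.19. Slc38a4 was the member that was higher, at 0.53. Per length, Slc7a5 in KO, at 20.6 ± 0.625 FPKM, remained well above Slc6a15 at 0.667 ± 0.0382. Of 15 genes of branched-chain amino acid breakdown, Bcat1, the cytosolic aminotransferase that starts it, had 4075, 4194 and 4773 counts in WT and 1775, 1839 and 1703 in KO (-1.07, SE 0.055, adjusted p = 4.1e-09). Hibadh was lower (-0.21), the kinase gene Bckdk higher (0.18), and 12 were not called, so that fewer were called than the 48.7% of all genes.

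For Btbd11, 16 relatives with BTB domains were tested, of which 6 were higher, 5 lower and 5 not called, with a median of 0.06, beside 48.7% of all genes called. Its closest relatives are the ankyrin-BTB genes Abtb1, with 650, 647 and 687 counts in WT and 438, 485 and 371 in KO (-0.40, SE 0.085, adjusted p = 0.00169), and Abtb2, which was not called (0.02). Btbd10 (0.57) and Rhobtb2 (0.52) were the highest of the 6 that rose. Of 12 genes of the cullin 3 ligase core and its adaptors, 4 were higher, 2 lower and 6 not called, about the share of all genes (48.7%). Kctd10, an adaptor for small GTPases, was higher at 0.50 and the adaptor gene Klhl12 lower at -0.60, while Cul3 itself changed by -0.15 (adjusted p = 0.0356). Among 12 genes of the postsynaptic density that passed the filter, 2 were higher, 2 lower and 8 not called, a smaller share than the 48.7% of all genes. Dlg2, which encodes a scaffold, had 23, 16 and 16 counts in WT and 41, 41 and 38 in KO (1.34), and Shank2, another scaffold, 200, 163 and 196 in WT and 17, 36 and 35 in KO (-2.44, SE 0.222, adjusted p = 1.1e-06).

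Of 21 genes of DNA methylation and gene silencing, 9 were lower, 3 higher and 9 not called, with a median of -0.11. Over all genes 23.6% were lower, 25.1% higher and 48.7% called, and the split by direction in this list was not tested. Dnmt3b, a de novo methyltransferase, had 190, 186 and 166 counts in WT and 87, 102 and 86 in KO (-0.76, SE 0.146), and the maintenance factors Uhrf1 (-0.41) and Dnmt1 (-0.37) were lower too. Tet3 (-0.98) and Tet1 (-0.52), which encode enzymes that oxidise methylcytosine, were also lower, as were Ehmt1, Trim28, Jarid2 and Ezh2. The histone deacetylase genes Hdac2 (0.65) and Sirt1 (0.47) and Mbd2 (0.29) were higher. Methylation of the 3 genes was not measured here.

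**Figure D5:**
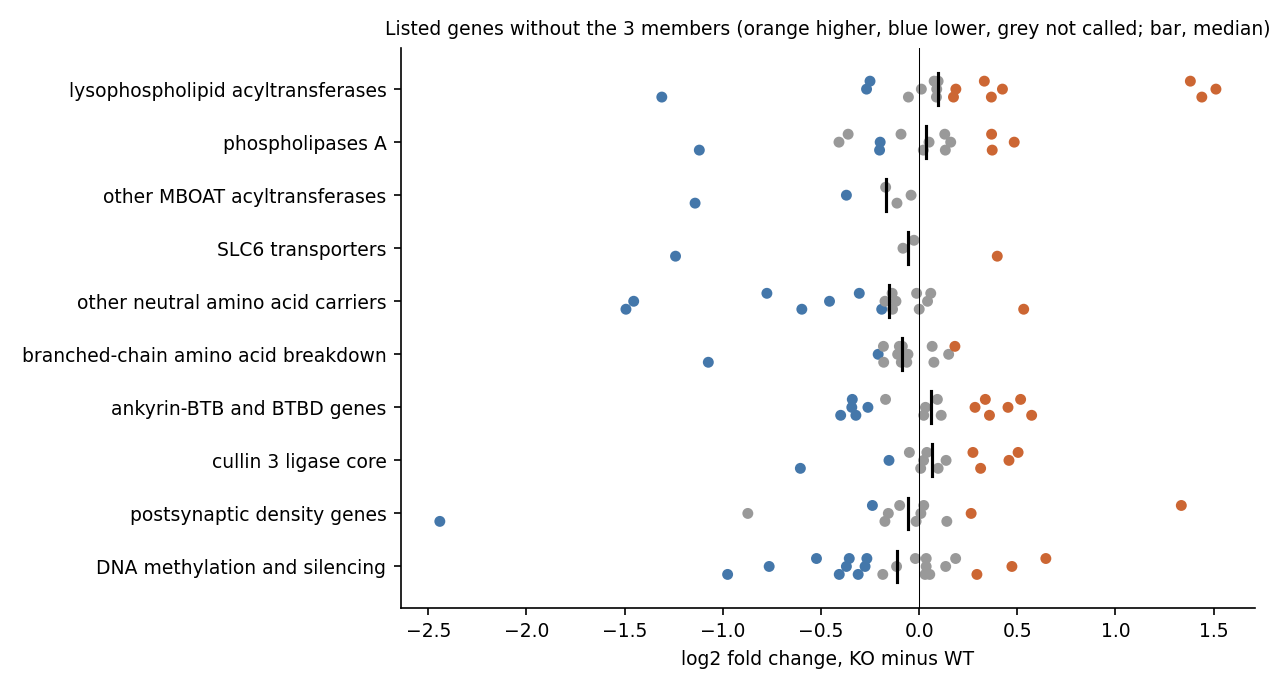
Log2 fold change, KO minus WT (horizontal axis, 3 libraries of each genotype), of each tested gene in 10 pathway lists (vertical axis), with Btbd11, Mboat1 and Slc6a15 left out and a black bar at the median. Orange and blue points passed the threshold as higher and lower, and grey points did not. The list of neutral amino acid carriers, which includes Slc7a11, has 7 blue points and 1 orange one.

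Many markers of other cell types did not pass the filter. For neurons and interneurons, from which Slc6a15 and Btbd11 are known, 3 of 8 and 2 of 7 passed it. Over all genes tested 25.1% were higher and 23.6% lower, and no set of markers was tested as a group. Of 8 neuronal markers, Tubb3 was higher in KO, with 19, 37 and 22 counts against 0 in each WT library, so that it passed the filter through KO alone, Snap25 (-0.54) and Map2 (-0.82) were lower, Rbfox3 and Nefl were at 0 in all 6 libraries, and the sum was 31.5 to 36.6 CPM in WT and 20.8 to 26.2 in KO. Of 7 interneuron markers, Vip was higher (0.69) and Lhx6 lower (-0.63), Pvalb and Sst were at 0 in all 6, Gad1 and Gad2 had at most 3 counts in any library, and the sum was 16.5 to 17.4 CPM in WT and 14.9 to 15.7 in KO. None of 6 epithelial markers passed the filter, with Epcam, Krt18 and Cldn4 at 0 in all libraries and sums of 0.563 to 1.26 CPM in WT and 0.530 to 0.673 in KO. Of 6 macrophage markers, Lyz2 was higher with 11, 10 and 13 counts in KO against 3, 1 and 2, also through KO alone, Ptprc and Cd68 were lower and 1 was not called, and the sum was 11.9 to 14.6 CPM in WT and 7.46 to 8.07 in KO. The 4 endothelial markers summed to 1.09 to 1.23 CPM in WT and 0.670 to 1.24 in KO, and the 1 tested was not called. The part of these cells in the counts of Btbd11, Mboat1 and Slc6a15 was not tested.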

How the data were processed

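mRNA-seq counts were made by the authors with HISAT2 and featureCounts (version 2.0.0, exons, paired, no strand option, GRCm38/mm10) and deposited as whole-number counts per gene without normalization. CircRNA-seq counts of junction reads came from find_circ after cutadapt trimming, as deposited by the authors. The filters are not given in the sources used here. The extraction text of the labels speaks of blood, while every source label names NIH/3T3.

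The test across genes was that of edgeR 4.0.16 under R 4.3.3 (quasi-likelihood test, TMM, its own filter on low counts, Benjamini-Hochberg over all genes tested, threshold 0.05). On simulated counts 94.5% of 2-fold changes were recovered, with 5.03% false calls. The simulation gave all genes the same dispersion and changed 200 of 14442, none of them from the lowest levels. Far more genes were called here, so these rates need not hold for these data or for genes near 0 in WT. CPM is per 1000000 counts in genes. CircRNA reads were divided by the junction reads of the library and compared by exact permutation tests (scipy 1.17.1). Floors of 3 counts cover counting error only, since no molecular identifiers are named.

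The genes and lists were chosen with earlier results of these data known. Named were the 3 genes, Xpo4, every tested neighbour within 500 kb, the 5 nearest in pattern, listed genes that were called or most abundant, and up to 10 genes on in one genotype and off in the other. A few others were named after their values were seen. Alternatives were other scaling factors, no filter, DESeq2 (version 1.42.0), other distances, the replicate block, reads as deposited and leaving out each library. The fitted fold changes of genes at 0 in WT depend on edgeR's prior count and are not printed.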

Additional observations from a re-analysis of the deposited data

How the results depend on the processing

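Over 7151 genes called, DESeq2's size factors and no normalization factors each gave 7152, no filter on low counts 7696 and DESeq2 6662. Leaving out each library gave 6143 to 7397. Of the neighbours within 500 kb, 14 were called and 13 to 15 when a library was left out. Of those reaching the filter's level in both genotypes, a choice made after seeing the data, 10 were called. Within 250 kb, 6 of 7 tested were called, and within 1000 kb 17 of 29, counts that follow from the genes in range. Both counts include Gm47223 and Gm47220, which passed the filter through KO alone. The count within 1000 kb also includes Bpifc and Fhl4, which passed it in the same way. Genes beyond 500 kb were not examined for this. Over all genes tested 48.7% were called. Without WT replicate 1 the log2 fold changes of Mterf2 and A230060F14Rik, not called in either case, turned to -0.012 and -0.032 (0.28 and 0.47 at the other end of the range without 1 library). Replicate numbers are shared by the genotypes in the labels, but same-numbered libraries did not deviate together (correlations 0.0615, 0.0359 and -0.0889), and the replicate block gave 7124 genes and 14 neighbours. For Mboat1 circRNAs, the difference KO minus WT without 1 library ranged from 66.1 to 150 RPM in whole cells, from 119 to 126 in the cytoplasm and from -628 to 363 in the nucleus, where the difference of -132 turned to 363 without WT replicate 1. As deposited reads it was 1 read higher in KO, because the nuclear WT libraries are smaller. With 300 bases in place of 250, the added 50 lying after the start, the window of Mboat1 held 3 GC boxes in place of 1. The nuclear depth limits every statement on circRNAs there.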
